A study of Schizosaccharomyces pombe with 36 samples.

Results

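The phosphatidylinositol 3-kinase-related kinases (PIKKs) of fission yeast, Schizosaccharomyces pombe, are encoded by tor1 (SPBC30D10.10c), tor2 (SPBC216.07c), rad3 (SPBC216.05), tel1 (SPCC23B6.03c), tra1 (SPBP16F5.03c) and tra2 (SPAC1F5.11c). These 6 genes were taken by identifier from a table of read counts for 5129 genes, and all 6 passed the low-count filter of every comparison in which they were tested. The question asked of them was whether their mRNAs change when the chaperone complex that serves their proteins, or one of the family, is lost. The rule that chose them used no measured value, but it was set with earlier results of these data known.

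PIKKs are very large proteins with a C-terminal kinase domain. Tor2 is the catalytic subunit of TORC1, which couples growth to nutrients, and Tor1 that of TORC2, which acts in stress survival and sexual development. Rad3 (the ATR homologue) and Tel1 (the ATM homologue) are the DNA damage checkpoint kinases. Tra1 and Tra2 lack kinase activity and are the subunits through which activators recruit the co-activators SAGA and NuA4, with Tra1 in SAGA and Tra2 in NuA4. The TTT complex (Tel2, Tti1 and Tti2) is a cochaperone that works with Hsp90 and R2TP to mature PIKK proteins and assemble them into complexes.

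Polyadenylated RNA was sequenced from 36 libraries of 12 conditions with 3 libraries each, from cells growing exponentially in rich medium (YES). In tti2-CKO (genotype cre-ER lox-tti2-lox) and tra2-CKO (cre-ER lox-tra2-lox) strains, β-estradiol releases a Cre-estrogen receptor fusion that excises the floxed gene, and DMSO is the vehicle. The creER strain carries the recombinase with no floxed gene. tti2-CKO cells were treated for 18 h, and tra2-CKO and creER cells for 21 h. The other conditions were tra1Δ, tra1-Sptra2 (genotype tra1-spTra2, in which a short part of Tra1 was exchanged for that of S. pombe Tra2), tra1-Sctra1 (genotype tra1-scTra1, with the same part from Saccharomyces cerevisiae Tra1), spt20Δ, which lacks a SAGA core subunit, spt20-HITΔ (genotype spt20-HITD-PK3, epitope-tagged and without the Spt20 helix that holds Tra1) and WT. The conditional deletion acts in a population, so a lower level in bulk RNA cannot be told apart from fewer cells that still carry the gene.

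Library totals ran from 4811942 to 9724398 assigned reads with a median of 6667399, and no pair of replicates held the same counts. How far 2 replicates differed was measured by the chi-square of their counts, scaled for depth, per degree of freedom. It ran from 3.2 to 48.8 over the 36 pairs. In creER on DMSO it was 47.9 and 48.8 for the pairs with replicate 1 and 27.4 for the other. The same values were 35.2, 28.8 and 7.7 in creER on β-estradiol and 35.6, 32.0 and 8.0 in tra2-CKO on DMSO. In spt20-HITΔ the pair of replicates 2 and 3 gave 38.0. The deleted genes followed the labels. tti2 mRNA was at 0.8, 0.6 and 0.3 CPM (reads of the gene relative to the library total, scaled to a common size) in tti2-CKO cells on β-estradiol, against 10.95, 10.03 and 13.4 CPM on DMSO. spt20 was at 5.0, 3.5 and 4.0 CPM in spt20Δ, against 43.2, 44.9 and 36.3 CPM in WT. tra1 and tra2 themselves are described below.

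The 6 mRNAs are long and of moderate abundance. Their annotated exons span 7268 bases for tor2, 7501 for tor1, 8969 for tel1, 9446 for rad3, 11069 for tra1 and 11382 for tra2 in the RefSeq annotation of assembly ASM294v3. None of their 50-base windows occurs elsewhere in that genome, so reads of unaltered family members could not have been counted for another by exact match. In tra1-Sptra2 the exchanged part of tra1 comes from tra2, and reads from it may have been counted for tra2. Outside the tra1Δ libraries for tra1 and the β-estradiol tra2-CKO libraries for tra2, each had between 262 (tel1) and 2092 (tor2) reads in a library.

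Per kilobase of exon, tor2 had the highest level, with a mean of 29.2 CPM per kb over 36 libraries and a range of 25.6 to 31.6. tor1 came next at 19.7 CPM per kb (17.5 to 22.1), below tor2 in all 36 libraries. tra2 (11.2), rad3 (10.7) and tra1 (9.73) formed a middle group whose ranges overlapped: tra2 exceeded rad3 in 24 of 33 libraries, and rad3 exceeded tra1 in 26 of 33. tel1 was lowest at 6.0 CPM per kb, below tra1 in all 33 libraries. The places in the middle depend on the length used, because rad3 has long untranslated ends: per kilobase of coding sequence rad3 reached 14.1 CPM per kb, above tra2 in 30 of 33 libraries, and tra2 exceeded tra1 in all 30.

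**Figure D1:**
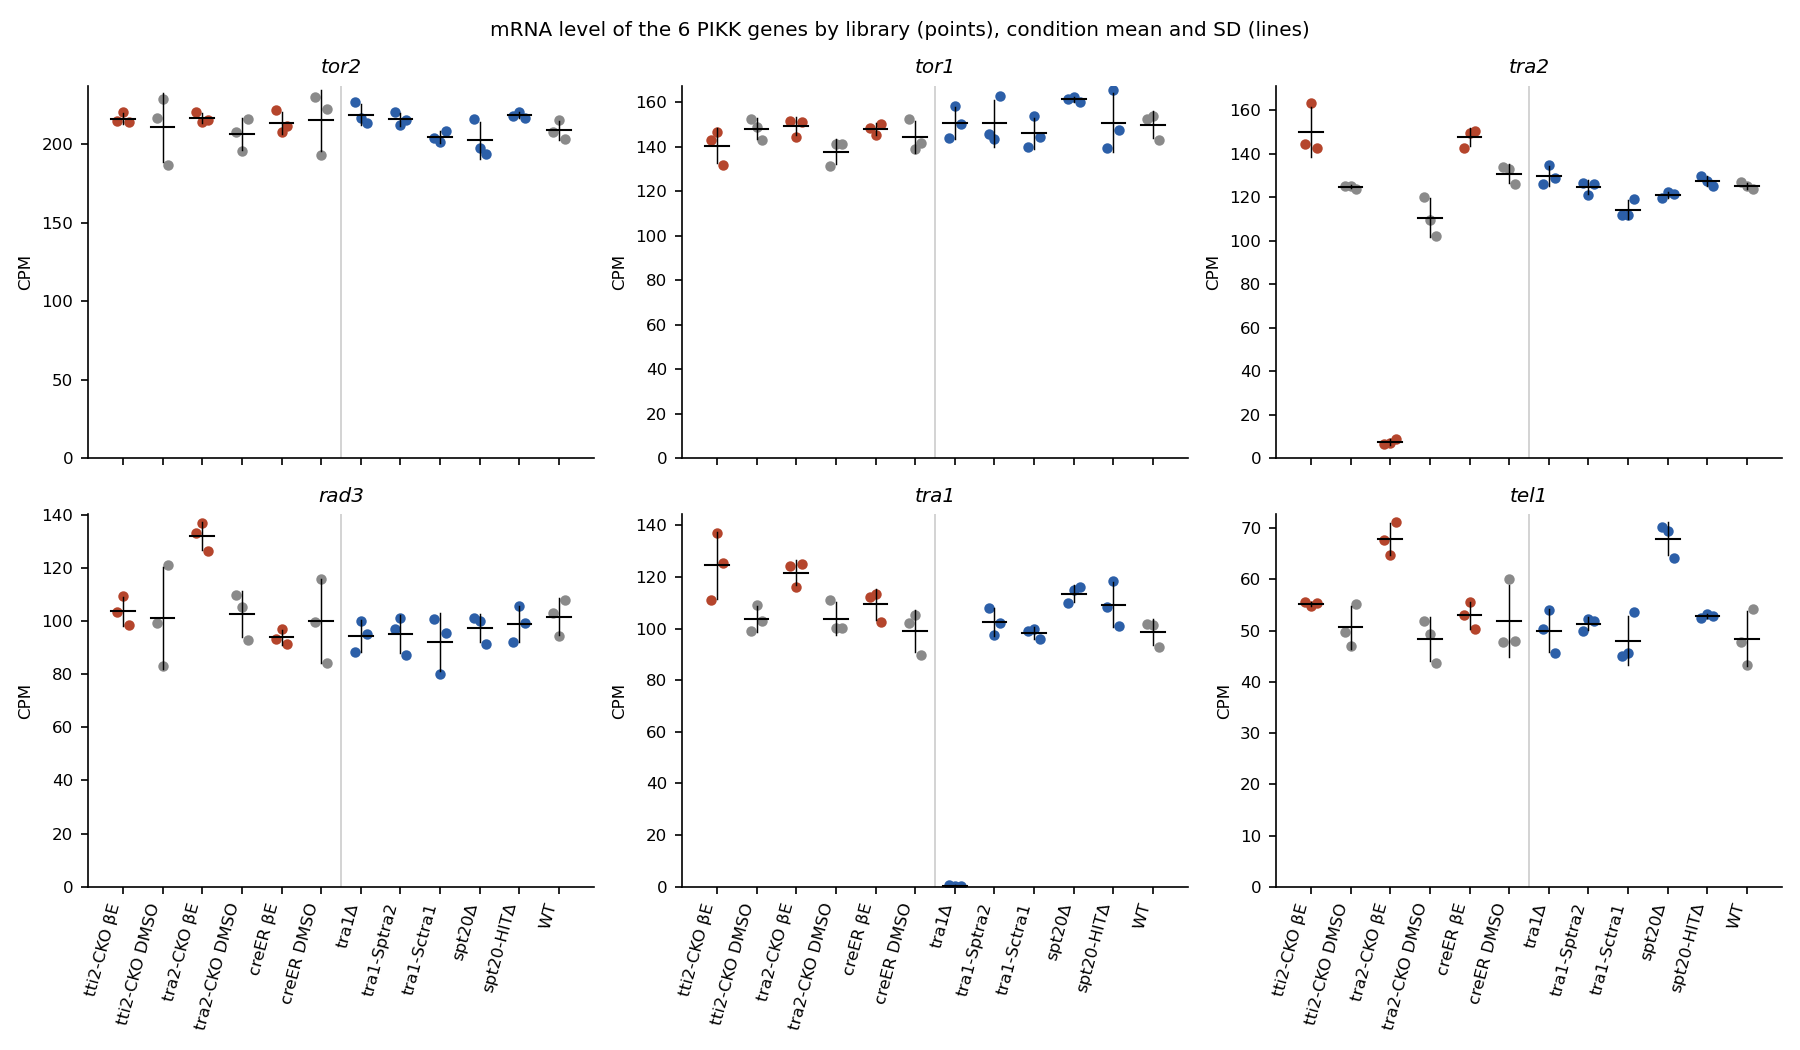
Level of each PIKK mRNA (CPM, y axis from 0) in each library (points) of the 12 conditions, with the condition mean and SD (black lines); red marks β-estradiol, grey DMSO or WT, and blue the mutants. tor2 and tor1 lie in a narrow band in all conditions, tra2 falls to 6.6 to 9.0 CPM in β-estradiol-treated tra2-CKO cells and tra1 to 0.3 to 0.8 CPM in tra1Δ.

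The TOR kinase mRNAs barely varied across the study. tor2 ranged from 186 to 230 CPM over all 36 libraries and tor1 from 131 to 166 CPM. The SD of the 12 condition means on the log2 CPM scale was 0.038 for tor2 and 0.057 for tor1, against a median of 0.171 over the 4651 genes that averaged 10 CPM or more. Only 1 of those genes had a smaller SD than tor2, and 27 had a smaller SD than tor1. Among genes within 2-fold of each one's level, 0 of 1504 had a smaller SD than tor2 and 19 of 2071 a smaller SD than tor1. Over single libraries in place of condition means, the counts of genes with a smaller SD were 3 for tor2 and 13 for tor1.

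The other 4 members were not set apart in this way. The share of genes with a smaller SD was 21.3% for tra1, 32.9% for rad3, 38.6% for tra2 and 51.2% for tel1, leaving out the deletion of tra1 or tra2 itself for that gene. tel1 had the largest SD of the 6, 0.173. These ranks are a description of the 12 conditions, with no test.

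**Figure D2:**
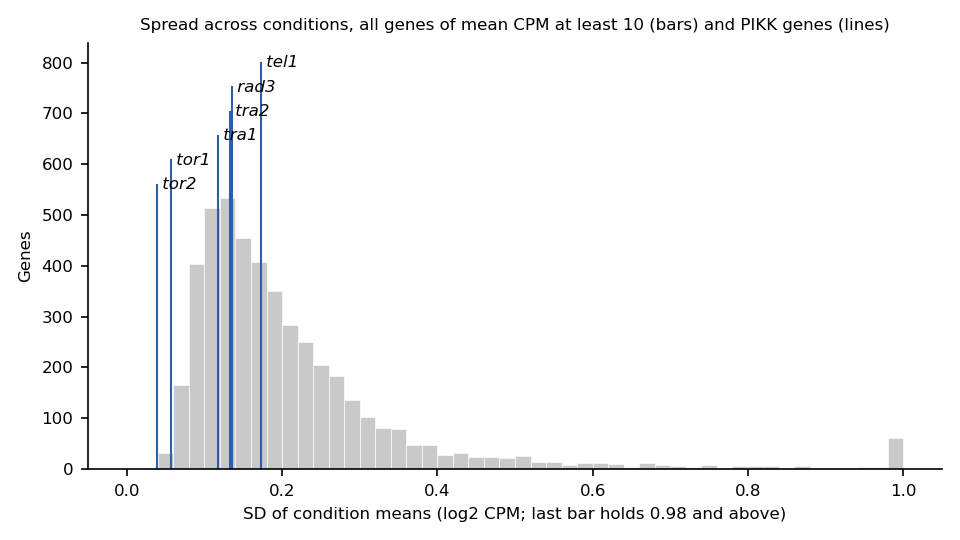
Number of genes (y axis) by the SD of their 12 condition means (x axis, log2 CPM; grey bars, 4651 genes) with the 6 PIKK genes as blue lines; for tra1 and tra2 the condition of their own deletion is left out. tor2 (0.038) and tor1 (0.057) lie at the left end and tel1 (0.173) near the median of 0.171.

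Loss of tti2 addressed whether PIKK client mRNAs respond when TTT is depleted. With edgeR's quasi-likelihood test and an adjusted p of at most 0.01, 0 of the 6 members changed in tti2-CKO cells on β-estradiol relative to DMSO, while 22.9% of the 4920 genes tested did. DESeq2 also called 0. An unadjusted edgeR p under 0.05 was found for 2 of the 6 members and for 2299 of all 4920 genes. The 95% intervals of all 6 log2 fold changes lay within -0.25 and 0.47, inside 1.5-fold in either direction (0.58 on the log2 scale).

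The pair with an unadjusted p under 0.05 were tra1 and tra2. tra2 was at 144, 163 and 143 CPM on β-estradiol, against 125, 125 and 124 CPM on DMSO. The groups did not overlap, though how common this was among all genes was not counted. The log2 fold change was 0.26 ± 0.08 (SE, n = 3 each, edgeR adjusted p = 0.0256). tra1 was at 111, 137 and 125 CPM on β-estradiol, against 99.2, 109 and 103 CPM on DMSO, again without overlap, with a log2 fold change of 0.26 ± 0.09 (edgeR adjusted p = 0.0461). In 1 fit of all 36 libraries both passed, with edgeR adjusted p = 0.00391 for tra1 and 0.000515 for tra2.

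Without a floxed gene, in creER cells, tra2 was at 143, 150 and 150 CPM on β-estradiol, against 134, 133 and 126 CPM on DMSO, a log2 fold change of 0.17 (95% interval -0.01 to 0.34). The replicate numbers paired these libraries, and with the number as a block it was 0.17 (0.01 to 0.32, edgeR adjusted p = 0.166). The difference between the tti2-CKO and creER responses was 0.12 for tra2 (-0.10 to 0.33, adjusted p = 0.494) and 0.15 for tra1 (-0.13 to 0.42, adjusted p = 0.507). These strains were treated for different times, 18 h and 21 h.

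The kinases proper stayed closer to their DMSO level. tor2 was at 215, 220 and 214 CPM in tti2-CKO cells on β-estradiol, against 217, 229 and 186 CPM on DMSO. tor1 was at 143, 147 and 132 CPM, against 153, 149 and 143 CPM. rad3 was at 103, 109 and 98.4 CPM, against 99.2, 83.1 and 121 CPM. tel1 was at 55.5, 54.8 and 55.5 CPM, against 49.7, 47.0 and 55.2 CPM. All 4 groups of libraries overlapped with their DMSO libraries. How many of all genes had groups without overlap was not counted, here or in the other comparisons. The log2 fold changes ran from -0.08 for tor1 to 0.12 for tel1.

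**Figure D3:**
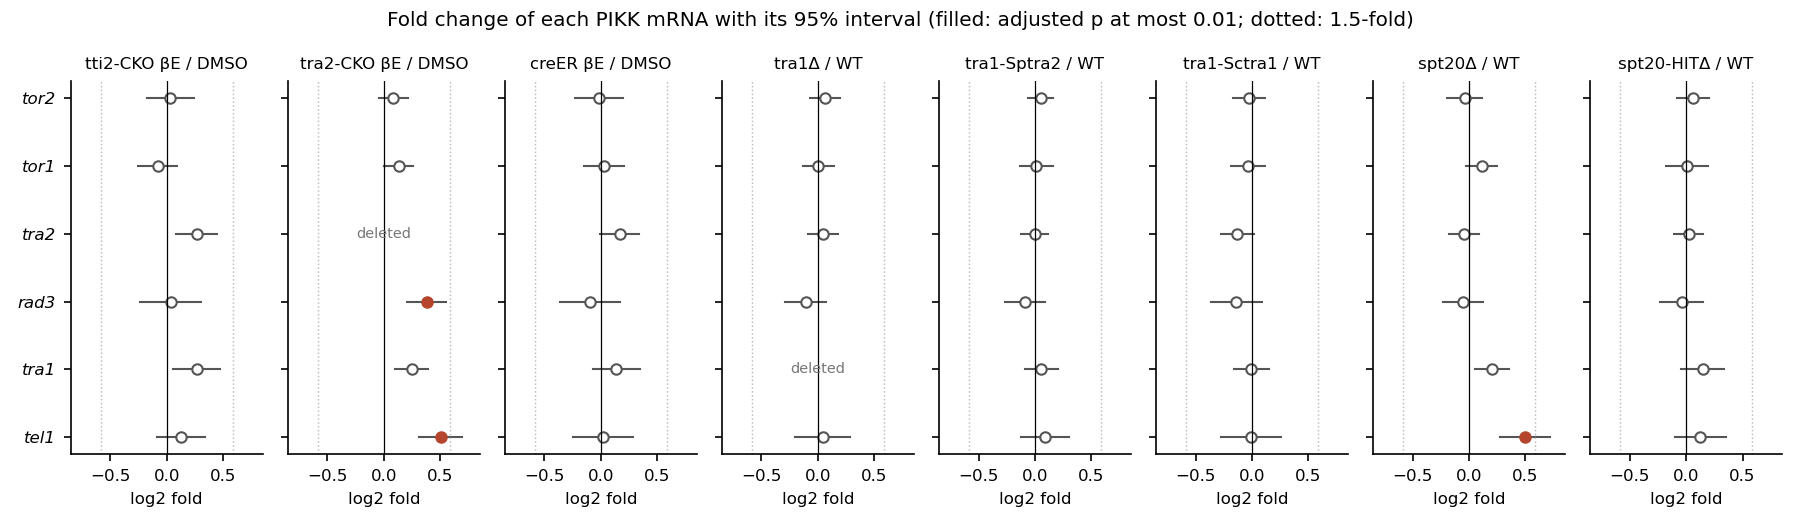
Log2 fold change (x axis) of each PIKK mRNA (y axis) in 8 comparisons, with the 95% interval from edgeR; filled red points have an adjusted p of at most 0.01, dotted lines mark 1.5-fold, and the deleted gene is left out. Apart from the deleted genes, the filled points are rad3 (0.38) and tel1 (0.50) in tra2-CKO and tel1 (0.50) in spt20Δ.

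Loss of Tra2, the NuA4 paralog, went with higher rad3 and tel1 mRNA. tra2 itself was at 6.6, 7.2 and 9.0 CPM in tra2-CKO cells on β-estradiol, against 120, 110 and 102 CPM on DMSO, which left 6.85 ± 1.11% of the DMSO mean (SD, n = 3). With tra2 included, 3 of the 6 members passed an adjusted p of 0.01, where 22.9% of 4929 genes did. Of the 5 that were not deleted, 2 rose and none fell, against 13.4% of genes higher and 9.45% lower. An unadjusted edgeR p under 0.05 was found for 4 of these 5 and for 2500 of all 4929 genes.

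tel1 was at 67.7, 64.8 and 71.2 CPM on β-estradiol, against 52.0, 49.4 and 43.7 CPM on DMSO. Every treated library was above every DMSO library, and the log2 fold change was 0.50 ± 0.08 (SE, n = 3 each, edgeR adjusted p = 0.00223, a fold of 1.42). rad3 was at 133, 137 and 126 CPM on β-estradiol, against 110, 105 and 93.0 CPM on DMSO, also without overlap, with a log2 fold change of 0.38 ± 0.07 (edgeR adjusted p = 0.00481, a fold of 1.30). Neither reached 1.5-fold. Their difference from the creER response was of similar size but did not pass: 0.47 for tel1 (95% interval 0.15 to 0.78, edgeR adjusted p = 0.115) and 0.46 for rad3 (0.15 to 0.77, edgeR adjusted p = 0.12). With the replicate number as a block, tel1 differed by 0.47 (0.17 to 0.77, edgeR adjusted p = 0.0549). rad3 then differed by 0.46 (0.22 to 0.69, edgeR adjusted p = 0.0248). Neither passed with the block, where 102 genes did, against 19 without it.

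Both calls were near the threshold. rad3 lost its call without tra2-CKO DMSO replicate 2 or 3 or any 1 β-estradiol replicate (edgeR adjusted p up to 0.0255) and in 1 fit of all 36 libraries (0.0106), and tel1 lost it without β-estradiol replicate 1 or 3 (up to 0.0131). The direction held in every fit that left out 1 library, with log2 fold changes of at least 0.31 for rad3 and 0.44 for tel1. For rad3 it was 0.36 in 1 fit of all 36 libraries.

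tra1, the SAGA paralog, was at 124, 116 and 125 CPM in tra2-CKO cells on β-estradiol, against 111, 100 and 100 CPM on DMSO. The groups did not overlap, but the log2 fold change of 0.25 ± 0.06 had an edgeR adjusted p of 0.0176, and 0.00289 without DMSO replicate 1. In creER cells tra1 differed by 0.14 (95% interval -0.07 to 0.34), and the difference between the responses was 0.09 (-0.15 to 0.33). tor1 and tor2 differed by 0.13 (0.01 to 0.26) and 0.09 (-0.05 to 0.22).

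The responses of the floxed strains were compared directly. For tel1 the tti2-CKO response minus the tra2-CKO response was -0.33 (95% interval -0.60 to -0.07, edgeR adjusted p = 0.0762) and for rad3 -0.30 (-0.64 to 0.04, edgeR adjusted p = 0.212). Here 1 of 6 members passed, tra2 itself, where 7.91% of 4956 genes did. The tti2-CKO and tra2-CKO treatments lasted 18 h and 21 h, and this difference in time cannot be told apart from the strain.

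Deletion of tra1 left its paralog at the WT level. tra1 had 5, 2 and 2 reads in tra1Δ, or 0.8, 0.4 and 0.3 CPM, against 102, 101 and 92.9 CPM in WT. These 9 reads are 0.465% of those a WT level would give (exact Poisson 95% interval 0.213% to 0.883%, counting error only). tra2 was at 126, 135 and 129 CPM in tra1Δ, against 127, 125 and 124 CPM in WT. The groups overlapped, and the log2 fold change was 0.05 (95% interval -0.08 to 0.18). Of the 6 members only tra1 passed an adjusted p of 0.01, where 3.65% of 4899 genes did, and the intervals of the other 5 lay within -0.29 and 0.29.

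The domain exchanges in Tra1 left its mRNA in place. tra1 was at 108, 97.4 and 102 CPM in tra1-Sptra2, against 102, 101 and 92.9 CPM in WT, and the groups overlapped. In tra1-Sctra1 it was at 99.1, 100 and 95.8 CPM, inside the WT range. With edgeR 0 of 6 members passed in either strain, where 8.5% of 4908 genes did in tra1-Sptra2 and 0.286% of 4896 in tra1-Sctra1 (14 genes, or 2 in the blocked fit by replicate number). DESeq2 also gave 0. An unadjusted edgeR p under 0.05 was found for 0 members, where 1924 genes had it in tra1-Sptra2 and 698 in tra1-Sctra1. The widest intervals were -0.27 (rad3) to 0.31 (tel1) in tra1-Sptra2 and -0.36 (rad3) to 0.26 (tel1) in tra1-Sctra1. tra2 in tra1-Sctra1 was at 112, 112 and 119 CPM, below the 127, 125 and 124 CPM of WT in each library, with a log2 fold change of -0.13 (95% interval -0.28 to 0.02, edgeR adjusted p = 0.406).

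Genes next to a deleted member changed as well. mcs2 and ubc7 flank tra1 on chromosome II and lie on the opposite strand. mcs2, a cyclin of the kinase module of TFIIH, was at 4.6, 6.0 and 5.8 CPM in tra1Δ, against 19.7, 20.9 and 28.3 CPM in WT, a log2 fold change of -2.06 ± 0.21 (SE, n = 3 each, edgeR adjusted p = 0.000325). ubc7, a ubiquitin-conjugating enzyme, was at 236, 208 and 227 CPM in tra1Δ, against 61.4, 69.9 and 60.6 CPM in WT, a log2 fold change of 1.80 ± 0.08 (edgeR adjusted p = 1.69e-06). No library of either gene overlapped with WT. Of the 11 genes next to a member these were the 2 that passed in tra1Δ, where 3.65% of 4899 genes did.

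At tra2, on chromosome I, 1 of the flanking genes passed in tra2-CKO cells, where 22.9% of 4929 genes did. Of the 11 genes next to a member 2 passed there, both lower, and the other was gpi1, next to tor1. gpi1 lost its call in 1 fit of all 36 libraries (-0.42, edgeR adjusted p = 0.0173). fal1, an RNA helicase gene, was at 91.6, 97.1 and 101 CPM in tra2-CKO cells on β-estradiol, against 144, 157 and 155 CPM on DMSO, a log2 fold change of -0.64 ± 0.06 (edgeR adjusted p = 0.000195). In creER cells it was at 154, 165 and 156 CPM on β-estradiol, against 141, 160 and 167 CPM on DMSO. The responses of the strains differed by -0.67 (edgeR adjusted p = 0.00856), a call that was lost without each of the 12 libraries in turn (adjusted p up to 0.0349). trk2, a potassium transporter gene on the other side, was at 136, 132 and 136 CPM in tra2-CKO cells on β-estradiol, against 181, 143 and 145 CPM on DMSO (log2 fold change -0.19, 95% interval -0.40 to 0.01, edgeR adjusted p = 0.116). In tti2-CKO cells, where tra2 is not floxed, trk2 was at 165, 167 and 192 CPM on β-estradiol, against 127, 136 and 133 CPM on DMSO, a log2 fold change of 0.40 ± 0.08 (edgeR adjusted p = 0.00312). It was 1 of 11 neighbours to pass in tti2-CKO, where 22.9% of 4920 genes did. That call was lost without tti2-CKO DMSO replicate 1 (0.0225). Whether the floxed or deleted alleles alter these neighbours' transcripts was not tested.

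**Figure D4:**
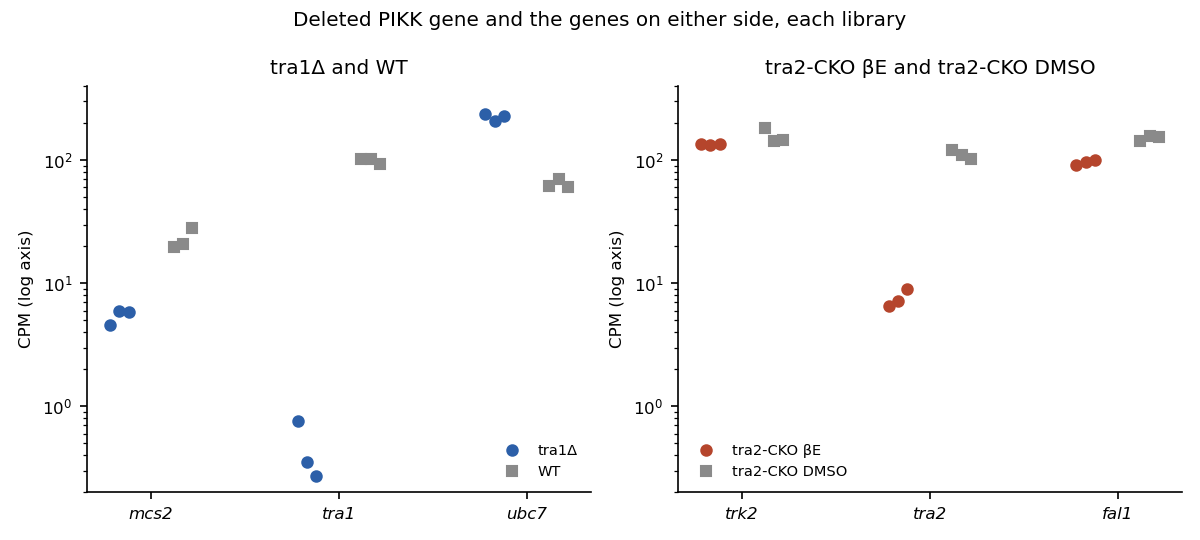
CPM (log axis) in each library of the deleted member and of the gene on either side; left, tra1Δ (blue circles) and WT (grey squares), right, tra2-CKO on β-estradiol (red circles) and on DMSO (grey squares). mcs2 falls to 4.6 to 6.0 CPM and ubc7 rises to 208 to 236 CPM in tra1Δ, and fal1 falls to 91.6 to 101 CPM in tra2-CKO cells on β-estradiol.

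The Spt20 strains addressed the SAGA side, since Spt20 is the subunit that anchors Tra1. In spt20Δ 1 of 6 members passed an adjusted p of 0.01, where 25.9% of 4920 genes did (1274 genes, or 1941 in the blocked fit by replicate number). This was tel1, at 70.3, 69.4 and 64.2 CPM in spt20Δ, against 47.9, 43.3 and 54.1 CPM in WT. The groups did not overlap, and the log2 fold change was 0.50 ± 0.10 (SE, n = 3 each, edgeR adjusted p = 0.00449, a fold of 1.41). An unadjusted edgeR p under 0.05 was found for 2 members and for 2644 of all 4920 genes. The call was lost without spt20Δ replicate 1 or 2 or WT replicate 1 or 2, with log2 fold changes of 0.42 to 0.49 and adjusted p up to 0.0233.

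tra1 was at 110, 115 and 116 CPM in spt20Δ, against 102, 101 and 92.9 CPM in WT, with a log2 fold change of 0.20 ± 0.07 (edgeR adjusted p = 0.0324). The spt20-HITΔ allele lacks the Tra1-holding helix and also carries the epitope tag. Its spt20 mRNA was lower than in WT by 0.58 on the log2 scale, without passing. In this strain tel1 was at 52.5, 53.2 and 52.9 CPM, within the WT range. tra1 was at 108, 119 and 101 CPM, overlapping with WT. With edgeR and with DESeq2 0 of 6 members passed in spt20-HITΔ, where edgeR called 0.389% of 4887 genes. An unadjusted edgeR p under 0.05 was found for 0 members and for 1076 of all genes.

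The strains were also compared with each other, which was decided after these values were seen. tel1 was higher in spt20Δ than in tra1Δ, where it stood at 50.3, 54.0 and 45.6 CPM, with a log2 fold change of 0.46 (95% interval 0.26 to 0.66, edgeR adjusted p = 0.00388). That call was lost without spt20Δ replicate 1 or 2 or tra1Δ replicate 1 or 3 (adjusted p up to 0.019). Against spt20-HITΔ the log2 fold change was 0.36 (0.19 to 0.54) with an edgeR adjusted p of 0.0155, and 0.00332 in 1 fit of all 36 libraries. Among all genes, 16.8% and 6.05% passed in these comparisons. The spt20Δ libraries were among the shallowest, with 4811942 to 6684023 reads.

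The remaining comparisons covered the recombinase, the inducer and the floxed alleles without inducer. In creER cells on β-estradiol relative to DMSO, 0 of 6 members passed with edgeR or DESeq2, where edgeR called 1.16% of 4904 genes (57 genes, or 319 in the blocked fit by replicate number), and 0 had an unadjusted p under 0.05. On DMSO, 0 of 6 members differed between tti2-CKO and creER, where edgeR called 0% of 4888 genes, DESeq2 called 26 genes and 710 genes had an unadjusted edgeR p under 0.05. Without creER DMSO replicate 1 edgeR called 285 genes, with 0 members among them. tti2 itself was lower in tti2-CKO than in creER on DMSO, by 0.82 on the log2 scale. It did not pass in the edgeR fit with no library left out. Between tra2-CKO and creER on DMSO the edgeR count was also 0 of 6, and 0% of 4879 genes passed, with 4 genes by DESeq2 and 260 genes at an unadjusted edgeR p under 0.05. The replicate numbers paired these libraries, and with the number as a block 149 genes passed, again with 0 members. tra2 in this last comparison was at 120, 110 and 102 CPM in tra2-CKO on DMSO, against 134, 133 and 126 CPM in creER on DMSO. The floxed libraries were all lower, with a log2 fold change of -0.23 (95% interval -0.43 to -0.04) and an edgeR adjusted p of 0.89. With the block it was -0.24 (-0.39 to -0.09, edgeR adjusted p = 0.0378). The tti2-CKO and creER responses differed for 0 of 6 members, where 2.55% of 4945 genes passed, and the tra2-CKO and creER responses for 1, tra2, where 0.384% of 4946 did.

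Partners of the PIKKs were examined by lists. Of the 7 matched genes of TTT, R2TP and Hsp90, 3 rose and 1 fell in tra2-CKO cells on β-estradiol, against 13.4% of all genes higher and 9.45% lower, with a median log2 fold change of 0.27 against 0.01 over all genes tested. Relative to the creER response 1 of the 7 passed, hsp90, by 0.94 (edgeR adjusted p = 0.0042), and that call was lost without any of 9 of the 12 libraries (up to 0.0199). hsp90, the chaperone itself, was at 2559, 2410 and 2633 CPM on β-estradiol, against 1163, 1142 and 996 CPM on DMSO, a log2 fold change of 1.22 ± 0.08 (edgeR adjusted p = 3.12e-05). tti1, a TTT subunit, was at 23.2, 22.8 and 19.8 CPM, against 11.53, 14.2 and 10.03 CPM, a log2 fold change of 0.89 ± 0.16 (edgeR adjusted p = 0.00326). tti1 lost its call without DMSO replicate 3 or β-estradiol replicate 1 or 2 (adjusted p up to 0.0187).

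Of 13 checkpoint genes around Rad3 and Tel1, 3 rose and none fell in tra2-CKO cells, against 13.4% of all genes higher, with a median of 0.11 against 0.01. In creER cells 9 of the 13 were above 0, with a median of 0.10 and 0 calls. Relative to the creER response 0 of 13 passed in tra2-CKO with edgeR or DESeq2. An unadjusted edgeR p under 0.05 was found for 2 of them and for 981 of 4946 genes. rad17, which loads the checkpoint clamp, was at 87.6, 83.9 and 76.6 CPM on β-estradiol, against 44.6, 48.0 and 39.1 CPM on DMSO (log2 fold change 0.93 ± 0.09, edgeR adjusted p = 0.000209). rad9, a subunit of that clamp, was at 39.1, 45.5 and 44.8 CPM, against 32.6, 26.0 and 28.6 CPM (0.59 ± 0.12, edgeR adjusted p = 0.0051). With the replicate number as a block, rad9 had an adjusted p of 0.0104, and it lost its call without any 1 library other than DMSO replicate 1. Of 9 TOR regulators and downstream kinases 2 rose and 1 fell (median 0.07), of 7 TORC subunits 1 fell (median -0.12), and of 3 related lipid kinases 1 rose (median 0.26), or 2 passed with the block.

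In tti2-CKO cells, among the 7 chaperone genes only tti2, the deleted gene, passed (-4.39). hsp90 was at 1126, 1250 and 1464 CPM on β-estradiol, against 1334, 1555 and 1398 CPM on DMSO (log2 fold change -0.16, 95% interval -0.43 to 0.10). The median of the 7 was -0.16 against -0.01 over all genes tested, and it counts the deleted tti2. The hsp90 responses of the strains differed by -1.33 (tti2-CKO minus tra2-CKO, edgeR adjusted p = 7.08e-05). Of the 13 checkpoint genes 3 rose and none fell, against 9.84% of all genes higher. Relative to the creER response 0 of 13 passed with edgeR and 1 with DESeq2. An unadjusted edgeR p under 0.05 was found for 2 of them and for 1252 of 4945 genes. chk1, the kinase that Rad3 activates after DNA damage, was at 92.6, 81.5 and 86.3 CPM, against 54.5, 52.6 and 61.5 CPM, a log2 fold change of 0.62 ± 0.09 (edgeR adjusted p = 0.000706). With the replicate number as a block 1 of the 13 passed, and in 1 fit of all libraries 5. The 7 TORC subunits, 9 TOR regulators and 3 lipid kinases gave 0 calls with edgeR, and 0, 1 and 0 in 1 fit of all libraries.

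**Figure D5:**
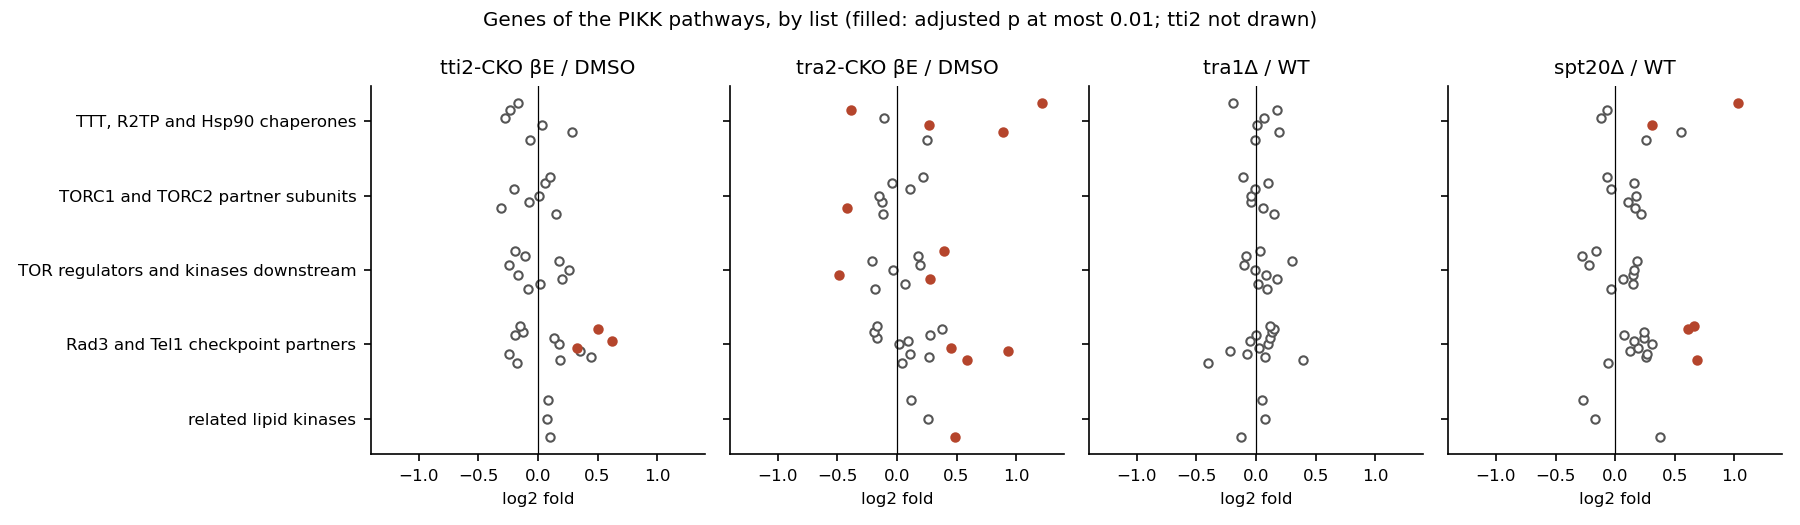
Log2 fold change (x axis) of each gene of 5 lists around the PIKKs (y axis) in 4 comparisons; filled red points have an adjusted p of at most 0.01, and tti2 is not drawn. The points farthest to the right are hsp90 in tra2-CKO (1.22) and spt20Δ (1.03), and no point is filled in tra1Δ.

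No gene of the 5 lists passed in tra1Δ, tra1-Sctra1, spt20-HITΔ or creER cells with edgeR, and in tra1-Sptra2 1 of 9 TOR regulators rose, against 3.16% of all genes higher. With the block 0 of these 9 passed, and in 1 fit of all libraries 3. In tra1Δ DESeq2 called 1 checkpoint gene and 1 fit of all libraries 1 TOR gene. In spt20Δ 2 of 7 chaperone genes rose, or 1 with RLE factors and with DESeq2, and 3 of 13 checkpoint genes rose, against 13.1% of all genes higher, with a median of 0.24 against 0.02 for the checkpoint list. The TORC, TOR and lipid kinase lists gave 0 calls in spt20Δ with edgeR or DESeq2. There the replicate numbers paired the samples, and with the number as a block 1 of 9 TOR genes fell, and of 3 lipid kinases 1 rose and 1 fell. In 1 fit of all libraries 1 of 7 TORC genes rose and 1 TOR gene fell. The checkpoint genes were rad9 (0.69, edgeR adjusted p = 0.00371, lost without spt20Δ replicate 1 at 0.0158 or 2 at 0.0186), rad50 (0.61, 0.00117) and nbs1 (0.66, 0.0006). Rad50 and Nbs1 are subunits of the MRN complex, which recruits Tel1 to DNA ends, and both were chosen for mention after their values were seen. The rise of rad50 was not particular to spt20Δ: it also passed in tti2-CKO cells, where tel1 did not. With the replicate block its log2 fold change there was 0.51 (edgeR adjusted p = 0.0214), which did not pass. rad50 was at 72.5, 65.0 and 63.4 CPM in spt20Δ, against 45.4, 41.0 and 46.2 CPM in WT, and nbs1 at 56.0, 61.8 and 59.0 CPM, against 37.6, 36.8 and 37.9 CPM. The third subunit gene, mre11, differed by 0.24 (95% interval 0.06 to 0.42, edgeR adjusted p = 0.0338). hsp90 was at 2226, 2005 and 3201 CPM in spt20Δ, against 1111, 1304 and 1234 CPM in WT (1.03 ± 0.16, edgeR adjusted p = 0.00162), a call lost without WT replicate 1 (0.0122).

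The genes most like each member were ranked by Pearson's r over the 12 condition means of log2 CPM, as a description with no test, since conditions share strains, libraries and controls. For tor2 they were inp53 (r = 0.86) and nup155 (0.805), for tor1 pcp1 (0.91) and tna1 (0.899), for rad3 swr1 (0.942) and mcp3 (0.932), and for tel1 wis2 (0.934) and rec10 (0.925). For tra1 they were its neighbour mcs2 (0.962) and sul1 (0.77), and for tra2 SPAC11D3.06 (0.961) and SPBC409.18 (0.933). These last values follow the deletion itself: without tra1Δ, r with tra1 was 0.227 for mcs2, and without the β-estradiol tra2-CKO mean, r with tra2 was 0.584 for SPAC11D3.06. Only 2 of these 12 genes were still among the nearest pair by Spearman's rho, and 2 by Pearson's r over 36 single libraries.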

How the data were processed

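The authors aligned single-end stranded reads to the S. pombe genome with HISAT2 2.1.0 and counted them per gene with HTSeq 0.9.1, counting strand; the genome build is not given in the sources used here. The deposited file holds raw counts, not normalized, for 36 libraries, and 0 of its columns were left unused. RefSeq ASM294v3 served only for symbols (5112 of 5129 identifiers matched), lengths and neighbours; no sequence is printed because the builds could not be matched. Levels are CPM with TMM factors over all libraries. A separate edgeR 4.0.16 model was run for each comparison, holding only the libraries compared (R 4.3.3; filterByExpr minimum count 10, TMM, quasi-likelihood F-test, two-sided, Benjamini-Hochberg over all genes tested). A call is an adjusted p of at most 0.01; 1.5-fold was a second rule. Intervals are 95% per gene and not adjusted for the number of genes. The fits were tested on simulated data.

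Members, gene lists and tests were chosen with earlier results of these data known, and pih1 and tah1 of the chaperone list were not matched (7 of 9). Named were the 6 members, tti2 and spt20, the adjacent genes, the 2 most correlated genes of each member (mean CPM at least 10, prior count 2) and list genes past both thresholds in tti2-CKO, tra2-CKO or tra1Δ; others are marked where named. Alternatives were RLE factors, DESeq2 1.42.0, no filter, a replicate block, 1 fit of 36 libraries and leaving out each library. The replicate numbers, from the sample titles, paired the samples (every pair's correlation over 0.1) in 5 of 12 pairwise comparisons, tra2-CKO, creER, tra1-Sctra1 and spt20Δ against their controls and tra2-CKO against creER on DMSO. Replicates are independent biological samples by the study's description.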

Additional observations from a re-analysis of the deposited data

Results flagged for a closer look

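Responses to β-estradiol that differed between strains, by edgeR's interaction test at an adjusted p of at most 0.01, were found for 8 genes among the members, their partners and their neighbours. They are given as log2 differences of fold changes. tti2 differed by -4.29 between tti2-CKO and creER and by -4.75 between tti2-CKO and tra2-CKO, and tra2 by -4.04 between tra2-CKO and creER and by 4.17 between tti2-CKO and tra2-CKO, as the deleted genes. hsp90 differed by 0.94 between tra2-CKO and creER (lost without any of 9 of the 12 libraries in turn) and by -1.33 between tti2-CKO and tra2-CKO. fal1, next to tra2, differed by -0.67 (lost without each of the 12 libraries in turn) and by 0.53 in the same comparisons, and trk2, on the other side of tra2, by 0.64 between tti2-CKO and tra2-CKO (lost without tti2-CKO DMSO replicate 1). fal1 lost the second call without tti2-CKO DMSO replicate 1 or tra2-CKO β-estradiol replicate 1. For trk2 the response itself passed in tti2-CKO (0.40, edgeR adjusted p = 0.00312) and not in tra2-CKO (-0.19, 0.116). Between tti2-CKO and tra2-CKO, chk1 also differed by 0.58 and the TOR pathway kinase genes psk1 and sck2 by 0.44 and -0.54. chk1 lost the call with the replicate block (edgeR adjusted p = 0.0154) and without any of 8 of the 12 libraries, sck2 without any of 8, and psk1 without tra2-CKO β-estradiol replicate 2. These treatments lasted 18 h in tti2-CKO and 21 h in tra2-CKO and creER. With 3 libraries in each condition, single libraries were not tested for standing apart.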

How the results depend on the processing

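The blocked fit changed no call of a member: the number called was the same with RLE factors, DESeq2, no low-count filter and the replicate block in all 15 comparisons. In 1 fit of 36 libraries it was 2 in tti2-CKO (tra1 and tra2), 1 in spt20Δ against spt20-HITΔ (tel1) and 2 rather than 3 in tra2-CKO, where rad3 had an adjusted p of 0.0106. With single libraries left out it was between 1 and 4 in tra2-CKO, 0 and 1 in spt20Δ against WT and 1 and 2 in spt20Δ against tra1Δ. Counts over all genes varied. Against 57 in creER, 179 in tra1Δ, 417 in tra1-Sptra2, 14 in tra1-Sctra1 and 19 in spt20-HITΔ with edgeR, DESeq2 called 169, 354, 679, 57 and 168. The replicate block gave 319 in creER, 2 in tra1-Sctra1, 1941 rather than 1274 in spt20Δ and 149 rather than 0 in tra2-CKO against creER on DMSO, where the numbers paired the libraries, and, where they did not, 152 in tra1-Sptra2 and more than DESeq2 in spt20-HITΔ. Of the 12 most correlated genes, 2 stayed in the nearest pair by Spearman and 2 over single libraries. Of 90 member fold changes, 25 changed sign under some setting, the largest of them 0.12, and none of these had passed the test. For tor1 in tra1Δ the log2 value was -5.9e-05 with DESeq2 and -0.0015 in 1 fit, and for tor2 in the tti2-CKO minus tra2-CKO response 0.0021 with no filter and 0.00089 with the replicate block. With single libraries left out the log2 values of the others spanned zero. They ran in tti2-CKO on β-estradiol for tor2 from -0.018 to 0.11 and for rad3 from -0.081 to 0.21, in creER on β-estradiol for tor2 from -0.082 to 0.042, for rad3 from -0.20 to 0.030 and for tel1 from -0.028 to 0.15, in tra1Δ for tor1 from -0.032 to 0.040 and for tel1 from -0.036 to 0.13. They ran in tra1-Sptra2 for tor1 from -0.049 to 0.046 and for tra2 from -0.015 to 0.020, in tra1-Sctra1 for tel1 from -0.098 to 0.084 and for tra1 from -0.043 to 0.021, in spt20-HITΔ for tor1 from -0.067 to 0.066 and for rad3 from -0.094 to 0.013. They ran in tti2-CKO against creER on DMSO for tor2 from -0.11 to 0.036, for rad3 from -0.15 to 0.13, for tel1 from -0.12 to 0.071 and for tra1 from -0.0096 to 0.10, in tra2-CKO against creER on DMSO for tor2 from -0.13 to 0.0061, for rad3 from -0.067 to 0.16 and for tel1 from -0.15 to 0.018, in the tti2-CKO minus creER response for tor2 from -0.033 to 0.13 and for tel1 from -0.018 to 0.17. They ran in the tti2-CKO minus tra2-CKO response for tor2 from -0.089 to 0.061 and for tra1 from -0.019 to 0.14, in spt20Δ against spt20-HITΔ for rad3 from -0.075 to 0.033. Leaving out a library reduces a group to 2. tel1, with 262 to 567 reads in a library, had the fewest reads of the members outside the deletions. The cause of these changes was not tested.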
